A study of Mus musculus with 24 samples.

Results

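The 10 genes described here belong to the NRF2 antioxidant response in C2C12, an established line of mouse myoblasts. They were chosen by name: the transcription factor gene Nfe2l2, its inhibitor Keap1, and the response genes Nqo1, Hmox1, Gclc, Gclm, Txnrd1, Srxn1, Slc7a11 and G6pdx. All 10 were among the 24043 gene symbols of the expression table and all 10 passed the expression filter that left 12389 genes for testing. Slc7a11 passed it through normoxic differentiation cultures alone, where it was high, so a difference from that group was built into its passing.

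RNA-seq was done on 8 libraries, which are replicates A and B of 4 conditions. Growth medium was DMEM with 10% fetal bovine serum and penicillin-streptomycin, in which cells were kept below confluence. Differentiation medium was DMEM with 2% horse serum and a 1X insulin, transferrin and selenium supplement (ITS), renewed over several days, with the day of harvest not given in the labels. Each medium was used at 21% oxygen (normoxia) and at 2% oxygen (hypoxia), with the length of hypoxia not given. As in the labels, the groups are called GM-NOR and GM-HYP for growth medium and DM-NOR and DM-HYP for differentiation medium. Serum, supplement and cell density therefore changed together with the medium and cannot be told apart. Every library comes from a single cell line, and the labels call A and B biological replicates without saying how they were separated. The 8 H3K27me3 libraries and 8 input libraries of the same series were not analysed here.

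NRF2, the product of Nfe2l2, is held in the cytoplasm by KEAP1 and marked there for degradation. Oxidants and electrophiles modify cysteines of KEAP1, and NRF2 then builds up, enters the nucleus, pairs with small MAF proteins and binds antioxidant response elements. Its target genes make glutathione, regenerate thioredoxin and peroxiredoxin, supply NADPH, reduce quinones and break down heme. Because NRF2 is controlled largely by protein stability, its mRNA level is not a measure of its activity. In skeletal muscle the pathway is known for buffering the oxidants made by mitochondria and contraction.

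The core of the antioxidant response element, TGACNNNGC, was looked for on both strands in the RefSeq promoter windows of GRCm38.p6, each running from 250 bases before to 50 bases after an annotated start. The sequences are shown because this element is what NRF2 binds, and the windows were matched by symbol, with no coordinates carried over to the authors' mm9 build. RefSeq windows were held for 8 of the 10 genes (10 windows, 3 of them for Txnrd1), and 5 of these genes had a match. Over all genes of the table, 14% (3781 of 27025) had one, and over all windows 12.4%. The matches are printed 5′ to 3′ with the 9 bases of the motif in capitals and 10 bases on each side. Read in the direction of the gene, the Srxn1 match begins at base 29 counted from the annotated start, and the other 4 lie before their starts.
Nfe2l2, chr2:75704885-75704913, minus strand: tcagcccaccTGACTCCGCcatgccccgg
Gclm, chr3:122245413-122245441, minus strand: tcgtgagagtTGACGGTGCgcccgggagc
Srxn1, chr2:152105542-152105570, minus strand: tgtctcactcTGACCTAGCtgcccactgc
Txnrd1, chr10:82859104-82859132, minus strand: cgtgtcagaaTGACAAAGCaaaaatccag
G6pdx, chrX:74428919-74428947, plus strand: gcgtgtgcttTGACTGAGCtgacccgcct
Read in the same direction, the match begins 240 bases before the start in Nfe2l2, 134 in Gclm, 92 in the second of the Txnrd1 windows and 57 in G6pdx. In all but Nfe2l2 the match is on the strand opposite to the gene, so that base is the last of the printed capitals. None of the 5 stretches holds TGACTCA, the related AP-1 motif. The windows of Keap1, Nqo1 and Slc7a11 held no match, which says only that these letters are not in those windows. A match is a description of sequence and was not tested for binding.

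Relative depth, read from the value of a single fragment, ranged from 0.633 to 1 with DM-HYP replicate A as the deepest library and replicate B of the same group as the shallowest. Absolute depth is unknown. The oxygen label was matched by 8 HIF target genes, which summed to 766 to 1376 FPKM (fragments scaled by transcript length and by the mapped total) in the normoxic libraries and 4108 to 5508 FPKM in the hypoxic ones. The medium label was not matched by the sum of 8 muscle genes at low oxygen. It was 7688 and 7699 FPKM in DM-NOR but 59.4 and 82.0 FPKM in DM-HYP. That is below the 344 to 415 FPKM of GM-NOR and the 98.2 and 105 FPKM of GM-HYP. Single genes did move: from GM-HYP to DM-HYP, Myog, Myh3 and Acta1 rose and Myod1 fell at a limma adjusted p under 0.05. Over all genes 23.3% rose and 17.6% fell there. Acta1, the highest of those that rose, reached 6.47 and 5.06 FPKM in DM-HYP. The name DM-HYP is used here for the culture medium. Replicates of that group also differed in 8 cell cycle genes, which summed to 33.4 FPKM in A and 196 FPKM in B.

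**Figure D1:**
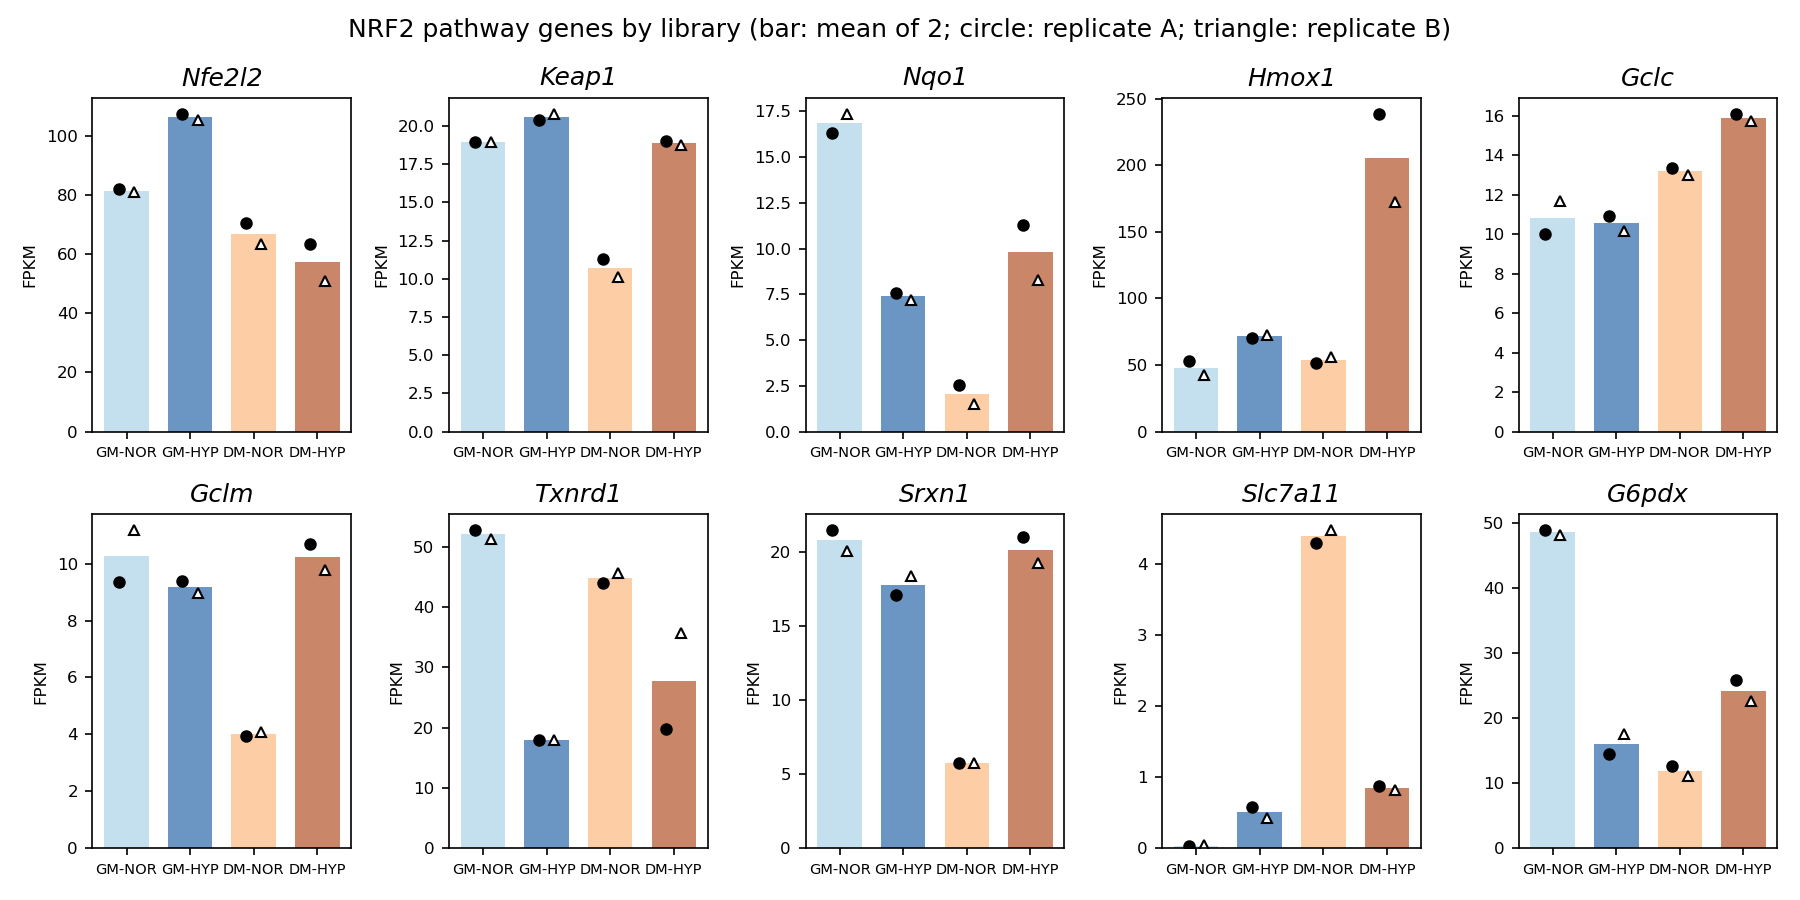
Level of each NRF2 pathway gene in FPKM (linear axis from 0) in the 4 conditions. Bars are means of 2 libraries, circles are replicate A and triangles are replicate B; Keap1, Nqo1, Gclm, Srxn1 and G6pdx were lowest in DM-NOR, where Slc7a11 was highest at 4.30 and 4.48 FPKM.

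A low point was shared by 5 of the genes. Keap1, Nqo1, Gclm, Srxn1 and G6pdx each had their lowest mean in DM-NOR, and both libraries of that group lay below all 6 others for every one of the 5. That pattern of libraries was also found in 34.2% of all tested genes (4234 of 12389), so it is common in these data. In bulk RNA, fewer cells that express a gene and less of its RNA per cell cannot be told apart. Slc7a11, which passed the filter through DM-NOR alone, was the reverse, with both DM-NOR libraries above all others, as in 23.7% of all genes. Txnrd1 was lower in all 4 hypoxic libraries than in the 4 normoxic ones, as were 12.2% of all genes. Hmox1 was highest in DM-HYP, and Keap1, Nfe2l2 and Gclc spanned the least between their highest and lowest group means (1.92-fold, 1.86-fold and 1.51-fold).

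Transfer to differentiation medium at 21% oxygen went with lower Nqo1, G6pdx, Srxn1, Gclm and Keap1 and higher Slc7a11. Slc7a11 passed the expression filter through DM-NOR alone. Of the 10 genes, 5 fell and 1 rose, at an adjusted p under 0.05 from limma on log2(FPKM + 1). The same call was made for 66.5% of all tested genes, 41% lower and 25.5% higher, so the total is not above the general rate and the 5 falls stand beside a rate of 41%. The median change of the 10 genes was -0.53 on the log2 scale, against -0.20 for all genes. Median-of-ratios scaling moved the median of all genes to 0.03 and the share of calls that were higher from 38.4% to 53.6%, and under it 5 of the 10 genes fell and 2 rose.

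At 2% oxygen the same change of medium went with higher Hmox1, Gclc, G6pdx and Slc7a11 and lower Nfe2l2. That makes 4 genes higher and 1 lower, where 40.9% of all genes were called, 23.3% higher and 17.6% lower. The median change was 0.32 for the 10 genes and 0.07 for all genes. The count of 5 dropped to 3 when GM-HYP replicate A or B was left out, and to 3 when only the libraries compared were fitted.

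Among cells in growth medium, low oxygen went with lower Txnrd1, G6pdx and Nqo1 and with higher Hmox1, Slc7a11 and Nfe2l2. These are 3 falls and 3 rises, beside 41.4% of all genes called, 28% lower and 13.5% higher. The medians were -0.09 for the 10 genes and -0.14 for all genes. Upper-quartile scaling moved the share of all calls that were higher from 32.6% to 49.3% and median-of-ratios scaling to 43.4%, and under both scalings the members' counts were again 3 and 3. The rises were less firm than the falls: 1 rise and 3 falls were called with no expression filter and without GM-NOR replicate B, either DM-NOR library or either GM-HYP library, and 2 rises and 3 falls without GM-NOR replicate A. Without either DM-HYP library 3 rose and 4 fell.

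In differentiation medium, low oxygen went with higher Hmox1, Nqo1, Srxn1, Gclm, G6pdx and Keap1 and with lower Slc7a11 and Txnrd1. Slc7a11 again owes its place among the tested genes to DM-NOR alone. Of the 10 genes, 6 rose and 2 fell, against 65.2% of all genes called, 37.5% higher and 27.7% lower. The median change was 0.87 for the 10 genes and 0.15 for all genes. With median-of-ratios scaling 6 rose and 3 fell, and the share of all calls that were higher went from 57.5% to 46.5%. Moving with oxygen too was the sum of 4 epithelial markers, at 3.25 to 3.46 FPKM in DM-NOR and 161 to 179 FPKM in DM-HYP. It was 6.14 to 6.43 FPKM in GM-NOR and 91.1 to 97.7 FPKM in GM-HYP. Krt19, a keratin gene and the only 1 of the 4 that was tested, made up most of the sum. It was 2.87 and 2.80 FPKM in DM-NOR and 161 and 179 in DM-HYP. Cdh1 went the other way, from 0.390 and 0.657 FPKM in DM-NOR to 0.0511 and 0 in DM-HYP. Krt5 was 0 in DM-NOR and 0.0651 and 0.137 FPKM in DM-HYP, and Epcam was at 0 in both groups. The part of these markers in the members' values was not tested. This comparison and the first share the DM-NOR libraries, so the opposite signs of Nqo1, Gclm, Srxn1, G6pdx, Keap1 and Slc7a11 in the 2 comparisons are not independent observations.

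**Figure D2:**
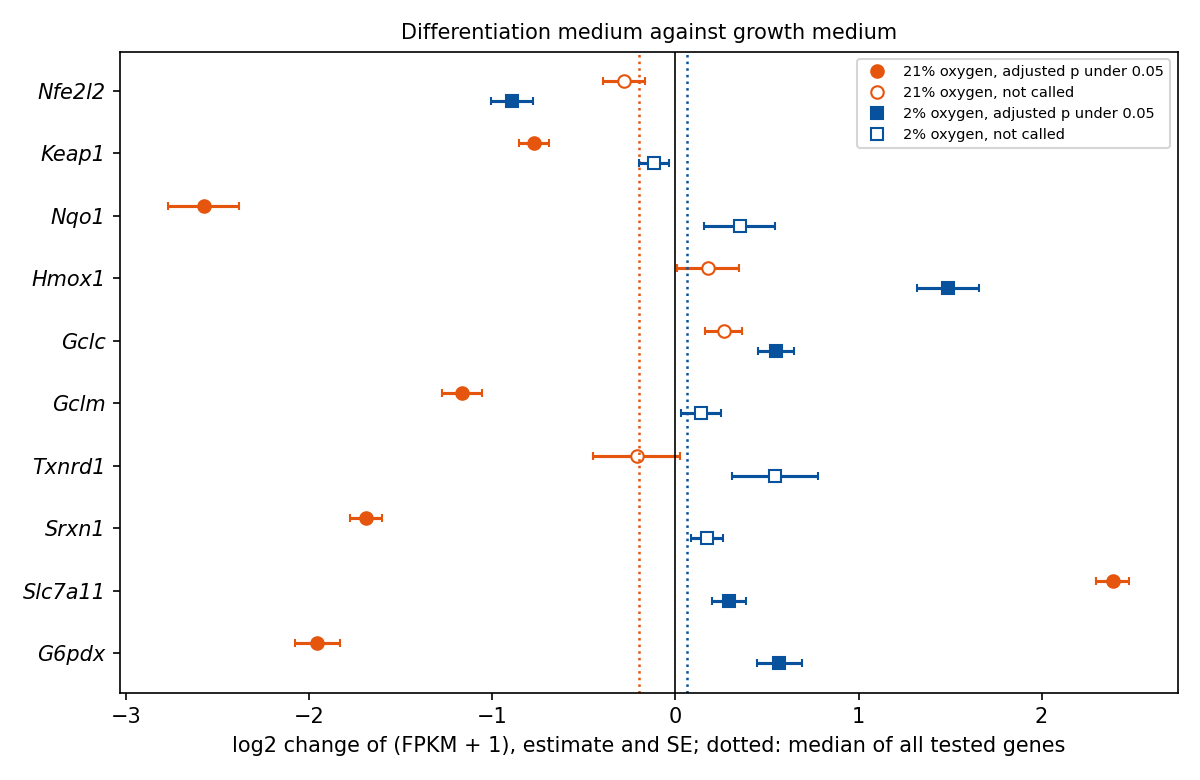
Log2 change of (FPKM + 1) from growth to differentiation medium for each gene at 21% oxygen (orange circles) and 2% oxygen (blue squares), with SE bars from limma. Filled symbols passed an adjusted p of 0.05, and dotted lines mark the medians of all tested genes at -0.20 and 0.07; Nqo1, G6pdx, Srxn1, Gclm and Keap1 have filled orange circles left of 0 at 21% oxygen.

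Whether the change of medium differed between oxygen levels was tested directly as the interaction, the change at 2% oxygen minus the change at 21% oxygen. It passed for 8 of the 10 genes, 6 with a higher and 2 with a lower value, beside 54.1% of all genes, 35.4% higher and 18.7% lower. The largest were Nqo1 at 2.93 ± 0.27 (SE; limma adjusted p = 0.00024), G6pdx at 2.52 ± 0.17 (6.88e-05) and Srxn1 at 1.86 ± 0.13 (6.5e-05). Slc7a11 had the largest negative value of the 10 genes, -2.09 ± 0.13 (4.87e-05) on the log2(FPKM + 1) scale, and -4.46 with a pseudocount of 0.1. It passed the expression filter through DM-NOR alone, a group that enters this contrast. The median was 1.03 for the 10 genes and 0.27 for all genes. Median-of-ratios scaling moved the median of all genes to -0.01 and the share of calls that were higher from 65.5% to 47.3%, and 5 of the 10 genes then had a higher and 2 a lower value.

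Nfe2l2 encodes NRF2 itself and was among the more abundant genes, above 89.4% to 95.3% of tested genes in the 4 groups. It measured 81.9 and 80.8 FPKM in GM-NOR (A, B), 107 and 105 in GM-HYP, 70.4 and 63.3 in DM-NOR, and 63.5 and 50.8 in DM-HYP. GM-HYP was highest and GM-NOR second, with no overlap, while the libraries of the 2 differentiation groups overlapped. The change of medium at 2% oxygen gave a fall of 1.86-fold, or -0.89 ± 0.11 on the log2 scale (limma adjusted p = 0.00181). At 21% oxygen the value was -0.28 ± 0.11 (0.0659), and the interaction was -0.61 ± 0.16 (0.0179). Hypoxia in growth medium gave 0.38 ± 0.11 (0.0361), a call kept in 9 of 16 alternative analyses. That call was lost with no expression filter and when any single GM-NOR, DM-NOR or GM-HYP library was left out. The interaction passed in 12 of its 15 and was lost without DM-NOR replicate A or either GM-HYP library. The value at 21% oxygen passed without either DM-HYP library. Hypoxia in differentiation medium gave -0.23 ± 0.11 (0.118), which passed without DM-HYP replicate A (-0.39) and under median-of-ratios scaling (-0.43).

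Keap1, the adaptor that presents NRF2 to its ubiquitin ligase, read 18.9 and 19.0 FPKM in GM-NOR, 20.4 and 20.8 in GM-HYP, 11.3 and 10.1 in DM-NOR, and 19.0 and 18.8 in DM-HYP. Only DM-NOR stood low. Libraries of GM-NOR and DM-HYP overlapped. The fall at 21% oxygen was 1.77-fold (log2 -0.77 ± 0.08, limma adjusted p = 0.000205), and hypoxia in differentiation medium gave a rise of 1.76-fold (0.77 ± 0.08, 0.000216). Neither the change of medium at 2% oxygen, -0.12 ± 0.08 (0.284), nor hypoxia in growth medium, 0.11 ± 0.08 (0.305), passed. The interaction of 0.65 ± 0.12 (0.00341) became 0.35 (0.0688) under median-of-ratios scaling.

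Glutathione synthesis begins with cystine import by SLC7A11, the light chain of the cystine-glutamate exchanger. Slc7a11 was the least abundant of the 10 genes and measured 0.0240 and 0.0371 FPKM in GM-NOR, 0.576 and 0.428 in GM-HYP, 0.868 and 0.810 in DM-HYP, and 4.30 and 4.48 in DM-NOR. The 4 groups did not overlap. If the lowest value is taken as 1 fragment, the 2 GM-NOR libraries together held 3 fragments and the 2 DM-NOR libraries 406, a depth-adjusted ratio of 140.2 with an exact 95% interval of 47.6 to 682.5 that covers counting error only. By the same step the GM-HYP libraries came to 30.7 and 21.6 fragments and DM-HYP replicate B to 30.7, which are not whole, so this assumption has a limit.

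On the log2(FPKM + 1) scale, which understates changes of so low a gene, Slc7a11 rose by 2.39 ± 0.09 in differentiation medium at 21% oxygen (limma adjusted p = 2.84e-06). A pseudocount of 0.1 gave 5.11. Slc7a11 passed the expression filter through DM-NOR alone. Its calls in contrasts that use DM-NOR, and its place in their counts, are therefore not independent of that filter. Hypoxia in growth medium gave a rise of 0.54 ± 0.09 (0.00436), or 2.2 with a pseudocount of 0.1, from a GM-NOR level that rests on the 3 assumed fragments. The fold in growth medium is therefore not given. Hypoxia in differentiation medium gave a fall of 5.24-fold in mean FPKM (log2 -1.55 ± 0.09, 1.57e-05). The rise with differentiation medium at 2% oxygen, 0.29 ± 0.09 (0.0432), passed in 4 of 16 alternatives, with adjusted p up to 0.218 without GM-HYP replicate B, and it was lost without any single hypoxic library or any GM-NOR library.

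The protein partner of SLC7A11 in the membrane is the heavy chain encoded by Slc3a2. Slc3a2 measured 36.3 and 30.8 FPKM in GM-NOR, 84.2 and 86.3 in GM-HYP, 88.1 and 104 in DM-HYP, and 392 (A) and 390 (B) in DM-NOR. It rose by 3.51 on the log2 scale in differentiation medium at 21% oxygen (limma adjusted p = 1.1e-06) and fell by 2.02 with hypoxia in that medium (1.05e-05). SLC3A2 also pairs with other transporters, among them the leucine transporter SLC7A5.

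Slc7a11 and Slc3a2 are also known targets of ATF4, the transcription factor of the amino acid stress response, and 10 genes of that response were counted beside them. These 10 response genes were chosen with earlier results of these data known. All 10 rose in differentiation medium at 21% oxygen (median log2 change 4.27, all genes -0.20), where 25.5% of all genes rose. All 10 rose with hypoxia in growth medium (1.63, all genes -0.14), beside 13.5% of all genes. With hypoxia in differentiation medium 9 fell and none rose (median -1.85, all genes 0.15; 1 rose without DM-HYP replicate A), beside 27.7% of all genes lower. The interaction was lower for all 10 (median -3.82, all genes 0.27) and for 18.7% of all genes. With differentiation medium at 2% oxygen, where Slc7a11 was called higher, 3 of the 10 rose and 3 fell (median -0.03, all genes 0.07). Over all genes 23.3% were higher and 17.6% lower there. Trib3, a pseudokinase gene of this response, went from 1.75 and 1.66 FPKM in GM-NOR to 120 and 120 in DM-NOR, with 64.2 and 64.3 in GM-HYP and 52.8 and 38.8 in DM-HYP. Slc7a5, the leucine transporter gene, read 13.5 and 11.3, then 432 (A) and 425 (B), 48.7 and 51.0, and 45.5 and 38.1 FPKM in the same order. Both genes, like Slc7a11, were lowest in GM-NOR and highest in DM-NOR. Unlike Slc7a11, both were higher in GM-HYP than in DM-HYP. The part of ATF4 in the Slc7a11 and Slc3a2 values was not tested.

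**Figure D3:**
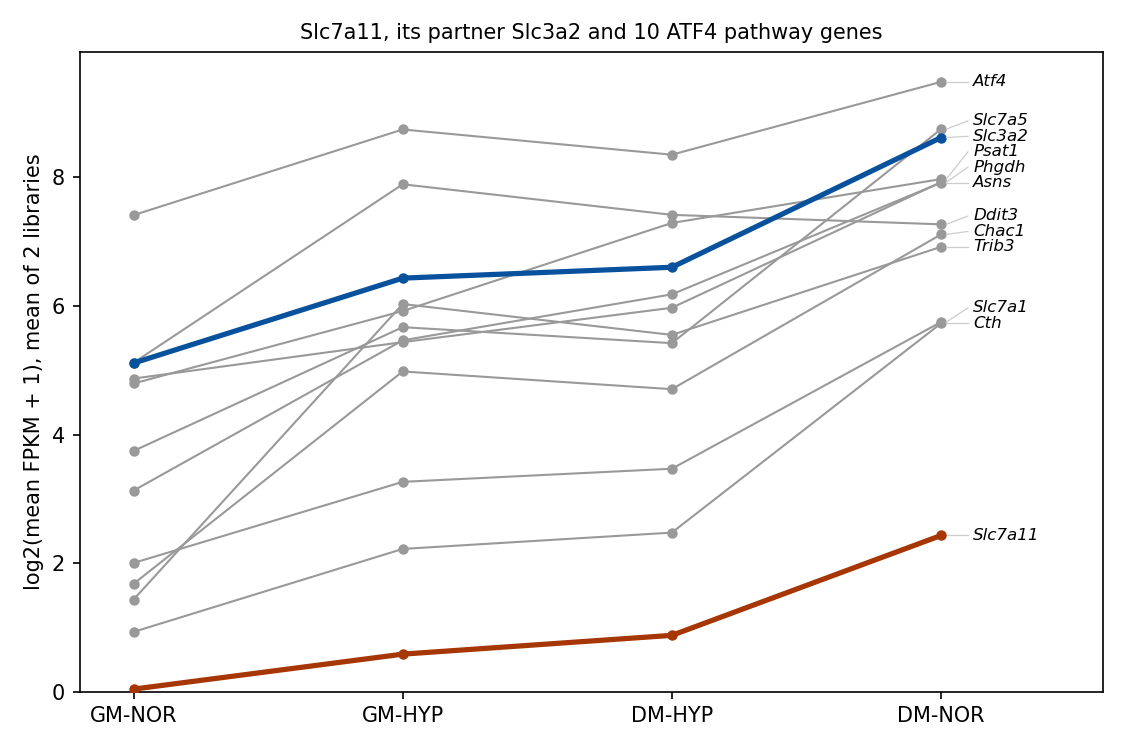
Group means as log2(mean FPKM + 1) for Slc7a11 (brown), Slc3a2 (blue) and 10 ATF4 pathway genes (grey), with groups ordered by the level of Slc7a11. All 12 lines start low in GM-NOR, and all but that of Ddit3 (named after its values were seen) end at their highest in DM-NOR.

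Glutamate-cysteine ligase, the rate-limiting enzyme of glutathione synthesis, has a catalytic subunit (Gclc) and a modifier subunit (Gclm) that raises its activity. Gclc measured 10.0 and 11.7 FPKM in GM-NOR, 10.9 and 10.2 in GM-HYP, 13.4 and 13 in DM-NOR, and 16.1 and 15.7 in DM-HYP. The growth medium groups overlapped and both differentiation groups lay above them. The rise with differentiation medium at 2% oxygen was 1.51-fold (log2 0.55 ± 0.10, limma adjusted p = 0.00595), with an adjusted p of 0.0522 without GM-HYP replicate B. At 21% oxygen the value was 0.26 ± 0.10 (0.051), which passed without either DM-HYP library or GM-NOR replicate B and under both scalings (0.52 and 0.39). Hypoxia gave -0.03 ± 0.10 in growth medium (0.82) and 0.25 ± 0.10 in differentiation medium (0.0579), and the latter passed without either GM-NOR library.

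Gclm differed in its lowest group. It read 9.37 and 11.2 FPKM in GM-NOR, 9.41 and 8.97 in GM-HYP, 3.95 and 4.07 in DM-NOR, and 10.7 and 9.77 in DM-HYP. Both libraries of DM-NOR were below all 6 others. The fall at 21% oxygen was 2.56-fold (log2 -1.17 ± 0.11, limma adjusted p = 0.000132), the rise with hypoxia in differentiation medium 2.55-fold (1.16 ± 0.11, 0.000134), and the interaction 1.30 ± 0.16 (0.000689). Neither the change of medium at 2% oxygen, 0.14 ± 0.11 (0.36), nor hypoxia in growth medium, -0.14 ± 0.11 (0.346), passed. The interaction of Gclc was 0.29 ± 0.14 (0.125), which passed without GM-NOR replicate A. The difference between the subunits was not itself tested.

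Thioredoxin reductase 1, the selenium-containing enzyme that keeps cytosolic thioredoxin reduced, is encoded by Txnrd1. Its values were 52.8 and 51.4 FPKM in GM-NOR, 44.0 and 45.8 in DM-NOR, 17.9 and 17.9 in GM-HYP, and 19.8 (A) and 35.7 (B) in DM-HYP. All 4 hypoxic libraries were below all 4 normoxic ones. Hypoxia in growth medium gave a 2.91-fold fall (log2 -1.49 ± 0.24, limma adjusted p = 0.00319), and hypoxia in differentiation medium -0.73 ± 0.24 (0.0302).

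The second of these rests on replicates that differed 1.81-fold. It was -1.14 without replicate B of DM-HYP and -0.32 without replicate A, and it passed in 8 of 16 alternatives. It was lost without any single library of the other 3 groups, with no expression filter and when only the libraries compared were fitted. The replicate with the higher Txnrd1, B, was also the one with the higher cell cycle sum (196 against 33.4 FPKM) and the lower depth, and the part of these in the value was not tested. The change of medium at 2% oxygen, 0.54 ± 0.24 (0.109), was 0.95 without replicate A (0.000374) and 0.13 without B. The interaction, 0.76 ± 0.33 (0.0964), was 1.17 without A and 0.34 without B, and both passed. At 21% oxygen the change of medium was -0.21 ± 0.24 (0.453) and 0.06 under median-of-ratios scaling, while it passed without either DM-HYP library.

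Sulfiredoxin, the product of Srxn1, repairs peroxiredoxins whose catalytic cysteine has been over-oxidised. Srxn1 measured 21.5 and 20.1 FPKM in GM-NOR, 17.1 and 18.4 in GM-HYP, 5.73 and 5.77 in DM-NOR, and 21.0 and 19.3 in DM-HYP. DM-NOR was low and the other groups lay within 17.1 to 21.5 FPKM. The fall was 3.62-fold at 21% oxygen (log2 -1.69 ± 0.09, limma adjusted p = 1e-05), and hypoxia in differentiation medium gave a rise of 1.65 ± 0.09 (1.01e-05). The change of medium at 2% oxygen gave 0.17 ± 0.09 (0.164). In growth medium hypoxia gave -0.22 ± 0.09 (0.092), which passed without either DM-HYP library (0.0477 and 0.048). The mean in DM-NOR was 5.75 ± 0.0222 FPKM (SD, n = 2).

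G6pdx encodes glucose-6-phosphate dehydrogenase, which makes NADPH in the first step of the pentose phosphate pathway. It measured 49.0 and 48.3 FPKM in GM-NOR, 14.5 and 17.6 in GM-HYP, 12.6 and 11.0 in DM-NOR, and 25.8 and 22.6 in DM-HYP. The 4 groups did not overlap. G6pdx passed in all 5 contrasts. So did Slc7a11, which passed the expression filter through DM-NOR alone and whose rise with differentiation medium at 2% oxygen passed in 4 of 16 alternatives. G6pdx fell 4.12-fold with differentiation medium at 21% oxygen (log2 -1.96 ± 0.12, limma adjusted p = 2.09e-05) and 3.03-fold with hypoxia in growth medium (-1.55 ± 0.12, 0.000231). It rose 2.05-fold with hypoxia in differentiation medium (0.98 ± 0.12, 0.000458) and by 0.57 ± 0.12 with differentiation medium at 2% oxygen (0.0115; 0.0739 without GM-HYP replicate A). A retrotransposed copy, G6pd2, could take or lend reads, and the counting of shared reads is not given in the sources used here.

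NQO1 reduces quinones by a pair of electrons at once with NADH or NADPH, and its gene is a standard readout of NRF2. Nqo1 measured 16.3 and 17.4 FPKM in GM-NOR, 7.58 and 7.19 in GM-HYP, 2.53 and 1.53 in DM-NOR, and 11.3 and 8.29 in DM-HYP. The 4 groups were separate. The 8.29-fold fall with differentiation medium at 21% oxygen (log2 -2.58 ± 0.19, limma adjusted p = 4.64e-05) was the largest fall of the 10 genes in that comparison. Hypoxia in growth medium gave a 2.28-fold fall (-1.09 ± 0.19, 0.00516) and hypoxia in differentiation medium a 4.82-fold rise (1.84 ± 0.19, 0.000213). The change of medium at 2% oxygen, 0.35 ± 0.19 (0.194), did not pass.

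HMOX1 opens the heme ring and releases iron, carbon monoxide and biliverdin, and its gene answers NRF2, heme-sensitive BACH1 and hypoxia in many cells. Hmox1 measured 53.1 and 42.2 FPKM in GM-NOR, 51.6 and 55.8 in DM-NOR, 70.5 and 72.7 in GM-HYP, and 239 (A) and 173 (B) in DM-HYP. The normoxic groups overlapped, and both hypoxic groups were higher. Hypoxia in differentiation medium gave a 3.83-fold rise (log2 1.90 ± 0.17, limma adjusted p = 0.000101), and differentiation medium at 2% oxygen a 2.87-fold rise (1.49 ± 0.17, 0.00126). The interaction was 1.31 ± 0.24 (0.00406). At 21% oxygen the change of medium gave 0.18 ± 0.17 (0.387).

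Hypoxia in growth medium gave 0.59 ± 0.17 (0.0322) for Hmox1, which passed in 10 of 16 alternatives. It was lost with no expression filter and without either GM-HYP library, either DM-NOR library or GM-NOR replicate B, where it was 0.43. Macrophages are rich in HMOX1, and 6 immune cell markers summed to 2.06 to 4.39 FPKM in the other groups and to 26.5 and 43.3 FPKM in DM-HYP. Cd68, a lysosomal gene of macrophages, was 25.8 and 42.8 FPKM in DM-HYP and rose there with hypoxia (log2 3.47; 0.05 in growth medium, not called). Lyz2, the lysozyme gene, was 0.683 and 0.28 FPKM in DM-HYP, 0.0742 and 0 in DM-NOR, 0.802 and 0.816 in GM-NOR, and 0.0569 and 0.361 in GM-HYP. Csf1r was between 0.0169 and 0.167 FPKM and Itgam between 0 and 0.141 FPKM over the 8 libraries, Emr1 was 0 in all of them, and Ptprc was 0 in all but DM-HYP replicate B, where it was 0.0137 FPKM. The part of these markers in the Hmox1 value was not tested.

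**Figure D4:**
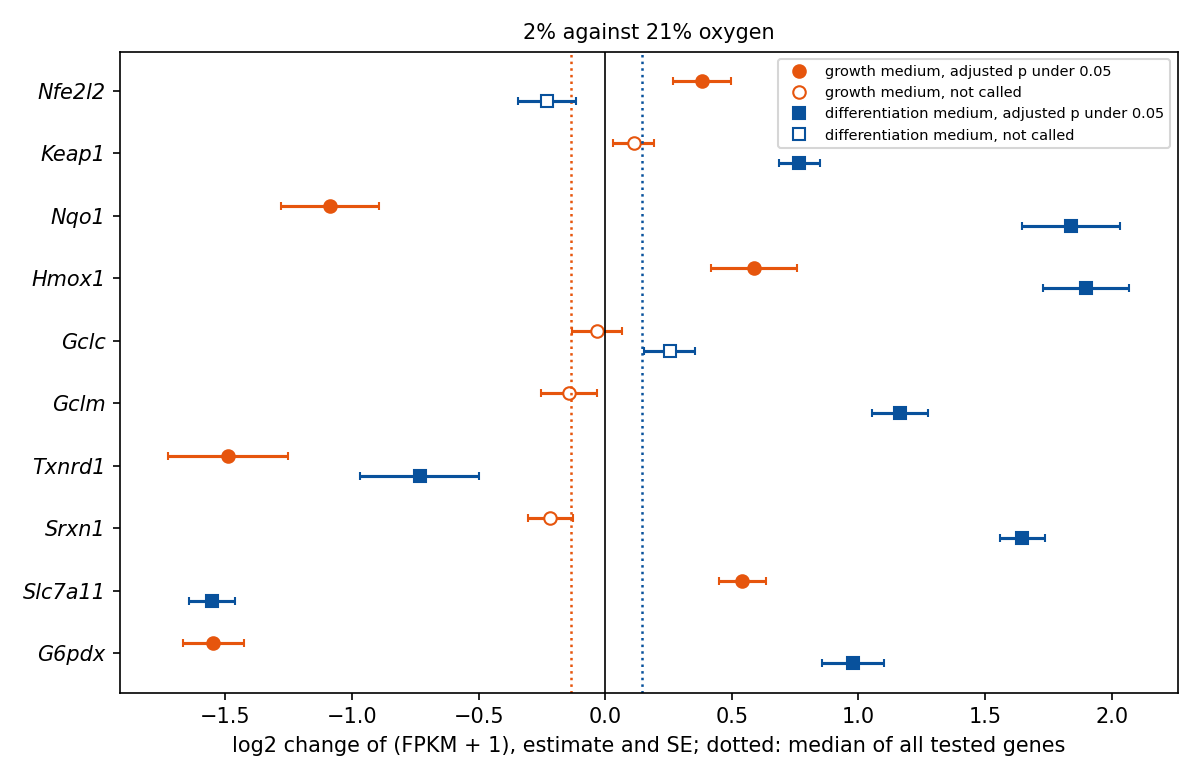
Log2 change of (FPKM + 1) from 21% to 2% oxygen for each gene in growth medium (orange circles) and differentiation medium (blue squares), with SE bars from limma. Filled symbols passed an adjusted p of 0.05 and dotted lines are the medians of all tested genes (-0.14 and 0.15); Nqo1 and G6pdx fell in growth medium and rose in differentiation medium, Slc7a11 the reverse.

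Other genes of the same pathways were counted from 9 lists, again chosen with earlier results of these data known. Among 12 NRF2 partners and regulators, of which 11 were tested, 4 rose and 3 fell with differentiation medium at 21% oxygen (6 and 2 under median-of-ratios scaling), and with hypoxia in differentiation medium 3 rose and 4 fell. Their medians were 0.15 and -0.09 (all genes -0.20 and 0.15), and the rates over all genes were 25.5% higher and 41% lower in the first comparison and 37.5% and 27.7% in the second. Nfe2l1, the NRF2 relative that controls proteasome genes, went from 66.3 and 59.4 FPKM in GM-NOR to 396 and 383 in DM-NOR (log2 2.61, limma adjusted p = 2.55e-06), while DM-HYP had 134 and 115. Nfe2l2 itself did not pass in that comparison. Maff, a small MAF partner of NRF2, rose with hypoxia in growth medium by 2.87 (7.37e-06), from 12.3 and 13.2 to 97.7 and 102 FPKM. Rbx1, the RING subunit of the KEAP1 ligase, fell from 66.9 and 62.5 to 42.1 and 42.7 FPKM with differentiation medium at 21% oxygen and was 86.2 and 82.2 FPKM in DM-HYP (interaction 1.52, 6.54e-05).

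A list of 17 detoxification and other NRF2 target genes was counted beside the members. With differentiation medium at 21% oxygen 13 fell and none rose (median -1.55, all genes -0.20; 1 rose under median-of-ratios scaling), where 41% of all genes fell. The same change of medium at 2% oxygen gave 2 rises and 4 falls (median -0.01, all genes 0.07), beside 23.3% of all genes higher and 17.6% lower. With hypoxia in differentiation medium 13 rose and 1 fell (median 1.03, all genes 0.15), where 37.5% of all genes rose. Under median-of-ratios scaling 11 rose and 2 fell there (median 0.86). The interaction was higher for 11 and lower for none (median 1.48, all genes 0.27; 13 and 1 without DM-HYP replicate B), beside 35.4% of all genes higher and 18.7% lower. In growth medium hypoxia gave 5 rises and 7 falls (median -0.47, all genes -0.14), and 10 falls without either DM-HYP library, beside 13.5% of all genes higher and 28% lower. Aldh3a1, an aldehyde dehydrogenase gene, dropped from 52.9 and 44.4 FPKM in GM-NOR to 0.499 and 0.724 in DM-NOR (log2 -4.94, limma adjusted p = 5.5e-07) and was 3.49 and 3.17 in DM-HYP. Gsta4, a glutathione transferase gene for lipid aldehydes, read 119 and 116, then 8.14 and 8.56, and then 723 (A) and 281 (B) FPKM in those 3 groups. Its rise with hypoxia in differentiation medium was 5.59 (2.87e-05), and its replicates there differed in the same direction as those of Hmox1 and Nqo1, with A higher.

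**Figure D5:**
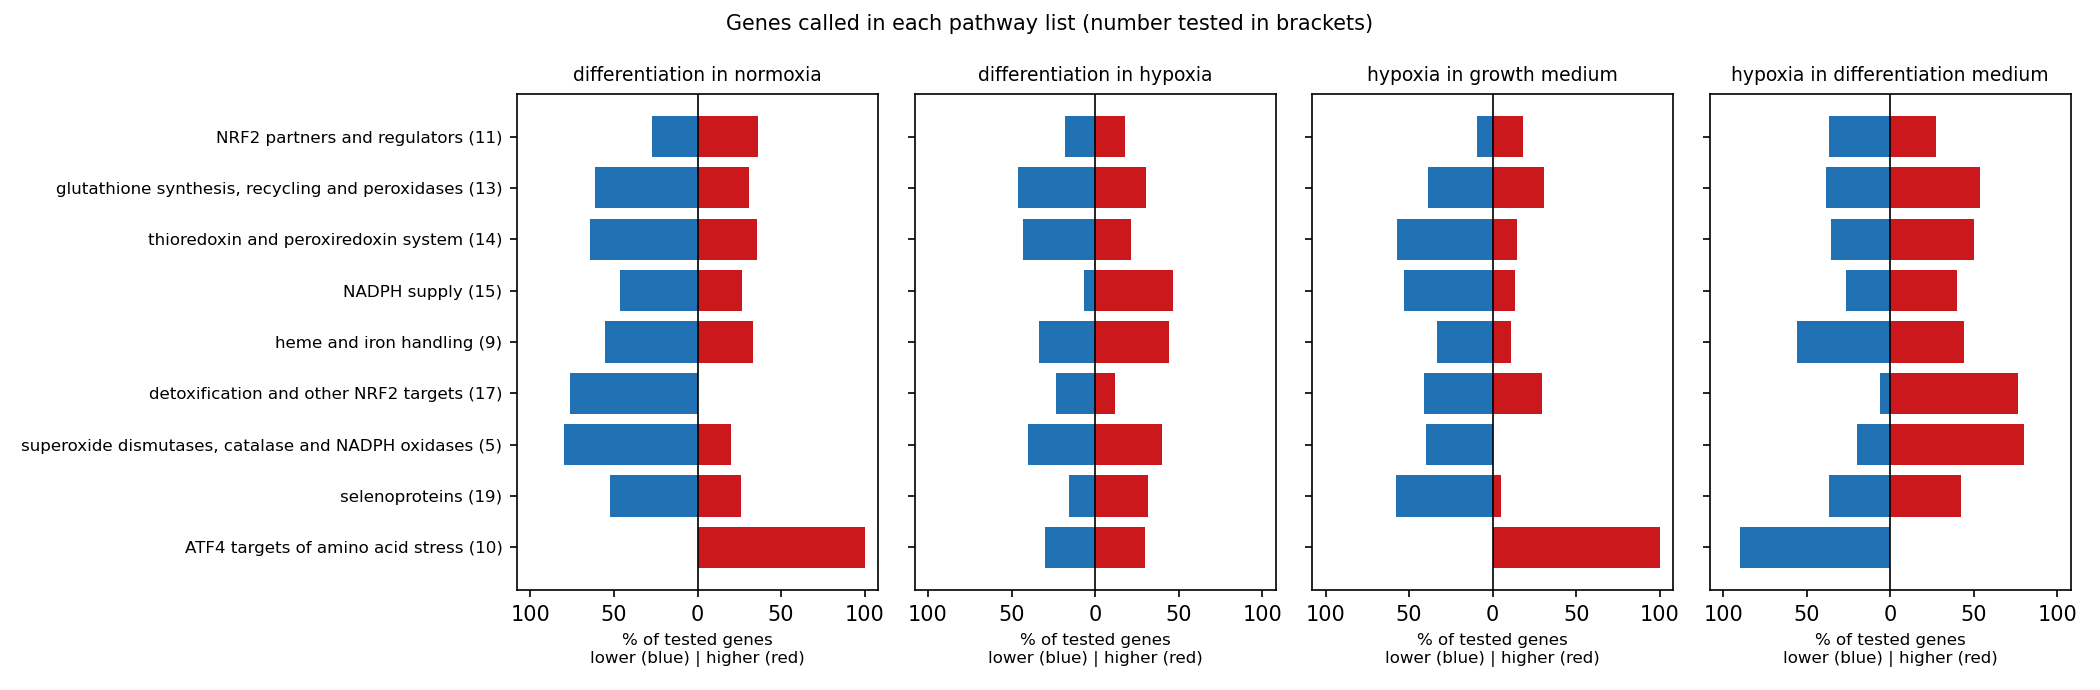
Share of the tested genes of each pathway list that were called lower (blue, to the left) or higher (red, to the right), in percent, in 4 comparisons, with the number tested in brackets. The detoxification list had 13 of 17 lower with differentiation medium in normoxia and 13 of 17 higher with hypoxia in differentiation medium. Over all genes the rates were 41% and 37.5%. Under median-of-ratios scaling, not drawn, the second count was 11.

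In the glutathione list 13 of 16 genes were tested, and 4 rose and 8 fell with differentiation medium at 21% oxygen, while 7 rose and 5 fell with hypoxia in that medium. The medians were -0.78 and 0.48 (all genes -0.20 and 0.15), where 25.5% of all genes rose and 41% fell in the first comparison and 37.5% rose and 27.7% fell in the second. Glrx, the glutaredoxin gene, measured 68.0 and 59.6 FPKM in GM-NOR, 9.62 and 8.79 in DM-NOR and 28.8 and 30.0 in DM-HYP. Mgst1, a membrane-bound glutathione transferase gene, fell from 42.1 and 43.3 to 1.97 and 2.52 FPKM with differentiation medium at 21% oxygen (log2 -3.75, limma adjusted p = 2.43e-06). Gpx1, the main cytosolic glutathione peroxidase and a selenoprotein, was 275 and 212 FPKM in GM-NOR, 68.5 and 62.9 in DM-NOR, 74.5 and 75.1 in GM-HYP, and 133 and 230 in DM-HYP.

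All 14 genes of the thioredoxin and peroxiredoxin list passed with differentiation medium at 21% oxygen, 5 higher and 9 lower, and hypoxia in growth medium gave 2 higher and 8 lower. Over all genes 25.5% were higher and 41% lower in the first, and 13.5% and 28% in the second; the list's medians were -0.92 and -0.54 (all genes -0.20 and -0.14). Prdx4, the peroxiredoxin of the endoplasmic reticulum, fell from 190 and 178 to 27.4 and 28.4 FPKM (log2 -2.67, limma adjusted p = 8.4e-07) and was 120 and 109 in DM-HYP. Prdx3, the mitochondrial form, went the other way, from 43.8 and 41.2 FPKM up to 107 and 102, and was 25.0 and 27.6 in DM-HYP. Prdx1, a cytosolic substrate of sulfiredoxin, was 305 and 298, 166 and 175, and 429 and 390 FPKM in those groups, with pseudogenes that make its read assignment uncertain. Of 19 tested selenoproteins, the class to which TXNRD1 belongs, 1 rose and 11 fell with hypoxia in growth medium, and 8 rose and 7 fell with hypoxia in differentiation medium (7 and 9 under median-of-ratios scaling). The shares over all genes were 13.5% higher and 28% lower in growth medium and 37.5% and 27.7% in differentiation medium. The list's medians were -0.47 and 0.07, against -0.14 and 0.15 for all genes. Dio2, among the 7 that fell with hypoxia in differentiation medium, passed the expression filter through DM-NOR alone (53.55 and 54.92 FPKM). Its place in that count is therefore not independent of the filter.

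Of 15 NADPH supply genes beside G6pdx, 4 rose and 7 fell with differentiation medium at 21% oxygen, and 7 rose and 1 fell at 2% oxygen. The medians were -0.26 and 0.25 (all genes -0.20 and 0.07), where 25.5% of all genes rose and 41% fell at 21% oxygen and 23.3% rose and 17.6% fell at 2%. The interaction was higher for 8 and lower for 3 (median 1.10, all genes 0.27), beside 35.4% and 18.7% of all genes. Me3, named after its values were seen, counts among the 4 rises at 21% oxygen and the 3 lower interactions. It passed the expression filter through DM-NOR alone (2.65 and 2.81 FPKM), so its place in those counts is not independent of that filter. Idh1, the cytosolic NADP-dependent isocitrate dehydrogenase, had the group order of G6pdx and Nqo1: 96.7 and 102 FPKM in GM-NOR, 97.4 and 79.7 in DM-HYP, 31.0 and 31.2 in GM-HYP, and 10.4 and 10.4 in DM-NOR. Its interaction was 4.61 (limma adjusted p = 2.91e-06). Mthfd2, the mitochondrial folate enzyme and an ATF4 target, went the opposite way, with 6.42 and 5.24, 21.4 and 27.4, 24.6 and 24.8, and 215 and 224 FPKM in those groups and an interaction of -5.04 (5.47e-06). The list therefore held genes of both patterns.

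Of 9 heme and iron genes, 4 rose and 5 fell with hypoxia in differentiation medium, the comparison where Hmox1 rose, beside 37.5% and 27.7% of all genes (median -0.59, all genes 0.15). Ftl1, the ferritin light chain that stores iron released from heme, measured 1616 and 1328 FPKM in GM-NOR, 276 and 269 in DM-NOR, 1615 and 1743 in GM-HYP, and 2698 and 2830 in DM-HYP (log2 3.34 for hypoxia in that medium, limma adjusted p = 1.93e-06). Ferritin has many pseudogenes, so its read assignment is uncertain. Blvra, one biliverdin reductase gene, was 21.4 and 24.7 FPKM in DM-HYP against 8.51 and 7.93 in DM-NOR, while Blvrb, the other, was 9.80 and 8.47 against 16.4 and 15.3. Of 5 tested superoxide dismutase, catalase and NADPH oxidase genes, 1 rose and 4 fell with differentiation medium at 21% oxygen (median -1.37, all genes -0.20), where 25.5% of all genes rose and 41% fell. Sod2, the mitochondrial superoxide dismutase, was the one that rose, from 8.39 and 8.42 to 17.8 and 18.1 FPKM. Cat, catalase, went from 31.9 and 32.0 to 12.2 and 11.3 FPKM and was 44.3 and 44.0 in DM-HYP.

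Similarity of profile was measured as the mean absolute difference between log2(FPKM + 1) profiles over the 8 libraries, each centred on its own mean, among about 6250 genes whose group means spanned at least 1. Within the set, Gclm and Keap1 were 0.163 apart, Srxn1 and Gclm 0.183, Nqo1 and Srxn1 0.321, and G6pdx and Nqo1 0.338. Outside it, Mok (0.0596), Stxbp4 (0.0605) and Gnpda2 (0.0655) were nearest to Gclm, Usp22 (0.0625) to Keap1, and Rabl2 (0.0714) to Srxn1. Car13 (0.148) was nearest to Nqo1, Ahcy (0.0942) to Txnrd1, and Tars (0.0918), the threonyl-tRNA synthetase gene, to Slc7a11. For Gclm, 253 other genes were closer than its nearest fellow member, so the members were not each other's closest profiles. These distances rest on the same 8 libraries and 4 group means and carry no test.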

How the data were processed

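For the 8 RNA libraries the authors deposited a table of genes whose values were taken as FPKM, as they are not whole numbers. Their relation to transcript length was not tested. The submitters' processing notes name STAR 2.5.1b, Cufflinks 2.2.1 and mm9, with roles not given, and the labels' protocols name a stranded total RNA kit. Depth is known only relative to the deepest library, so counting intervals cover counting error only.

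limma 3.58.1 (R 4.3.3) was fitted with a variance trend to log2(FPKM + 1) over 8 libraries and 4 group means (4 residual and 2.61 prior degrees of freedom), for 12389 genes whose mean reached 1 FPKM in any group. Tests were two-sided, with Benjamini-Hochberg adjustment over all genes of a contrast and a threshold of 0.05. In the 16 alternatives, the pseudocount was 0.1, the filter was dropped, scaling was by median of ratios or upper quartile, only compared libraries were fitted, array weights, robust moderation or a replicate block were used, or 1 library was left out.

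All 10 members were named. From each list the gene with the largest called rise and fall per contrast could be named, given a mean of 10 FPKM or more in 1 group and no overlap of libraries, as could the 3 nearest profiles per member. Members and lists were chosen with earlier results of these data known.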

Additional observations from a re-analysis of the deposited data

Results flagged for a closer look

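For 8 of the 10 genes the log2 change on transfer to differentiation medium differed between 2% and 21% oxygen in the direct test of that difference (limma interaction, adjusted p under 0.05). The difference was 2.93 for Nqo1, 2.52 for G6pdx, 1.86 for Srxn1, 1.31 for Hmox1, 1.30 for Gclm and 0.65 for Keap1. It was -2.09 for Slc7a11 (-4.46 with a pseudocount of 0.1) and -0.61 for Nfe2l2. Slc7a11 passed the expression filter through DM-NOR alone. The interaction passed for 54.1% of all genes. Under all 15 alternatives that gave a value, Nqo1, Hmox1, Gclm, Srxn1, Slc7a11 and G6pdx passed, while Keap1 passed in 14 and Nfe2l2 in 12.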

How the results depend on the processing

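Of 790 values for 50 pairs of gene and contrast, 718 kept their direction and side of the threshold, 24 newly passed, 41 no longer passed and 7 changed sign, none of these 7 called. Median-of-ratios scaling changed the sign of Txnrd1 with differentiation medium at 21% oxygen (0.06) and of the Gclc interaction (-0.015). Upper-quartile scaling changed that of Gclm with hypoxia in growth medium (0.014). Gclc with hypoxia in growth medium became 0.075 with median-of-ratios scaling, 0.124 with upper-quartile scaling and at most 0.070 with 1 library left out. With other single libraries left out it stayed negative, down to -0.136. The cause of the sign changes was not tested. For differentiation medium at 2% oxygen, 5 members were called, 3 when only the libraries compared were fitted, 3 with array quality weights and 3 to 5 with 1 library left out. All genes called there numbered 5073, against 2867 with only the libraries compared, which are fewer samples, and 2501 to 6529 with 1 library left out. For hypoxia in growth medium, all genes called numbered 5135, and 2997 to 6844 with 1 library left out.

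Deviations of A from B did not go together between groups (correlations across genes from -0.166 to 0.042). The labels do not say whether a letter marks a shared culture, day or batch, and these correlations cannot decide it. The letters were used to name the libraries. With a replicate block 4 members were called for differentiation medium at 2% oxygen (Slc7a11 was lost, at 0.29), and the other 4 counts of members were unchanged. Where leaving out a library left 1 in a group, that library was assumed to vary like the others. Depth limits the Slc7a11 comparisons with GM-NOR, whose libraries held 3 fragments together if the lowest value is 1 fragment.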
